A study of Homo sapiens with 4 samples.

Results

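The genes of eIF2 phosphorylation were examined in NB4, an acute promyelocytic leukemia cell line, after knockdown of CEBPG. The 9 genes were chosen by name as parts of this machinery, with earlier results of these data known. They encode the 4 eIF2 kinases (EIF2AK1, EIF2AK2, EIF2AK3 and EIF2AK4), the regulatory subunits of the eIF2 phosphatase (PPP1R15A and PPP1R15B), subunits alpha and beta of eIF2 (EIF2S1 and EIF2S2) and the catalytic subunit of its exchange factor eIF2B (EIF2B5). All 9 were found among the 16504 gene symbols of the table, and all 9 passed the filter of a mean of at least 1 FPKM (fragments of a transcript divided by its exon length and by the mapped reads of its library), as 10968 genes did. RNA-seq covered 4 libraries labelled NB4, 2 from cells with CEBPG present (control) and 2 from cells with CEBPG knockdown. Per the study methods, knockdown used short hairpin RNAs delivered by a lentiviral vector, with puromycin selection of stable lines and shRNA control cells, so that a lentiviral hairpin vector is shared by both groups. The knockdown libraries carry 1 label, CEBPG3, so effects of that hairpin on other genes cannot be told apart from the loss of CEBPG. Nothing in the labels says that replicates came from separate cultures, so p-values measure the spread between these libraries, which may be technical.

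Translation factor eIF2 brings the initiator tRNA to the ribosome as a complex with GTP, and eIF2B recharges it with GTP after each round. Under stress, kinases phosphorylate a serine of the alpha subunit, which turns eIF2 into an inhibitor of eIF2B. General translation then falls, while mRNAs such as that of ATF4 are translated more, which is called the integrated stress response. A phosphatase made of a type 1 catalytic subunit with PPP1R15A or PPP1R15B removes the phosphate. CEBPG, a leucine-zipper transcription factor, is known as a partner of ATF4 in this response. In red cell precursors the heme-regulated kinase EIF2AK1 adjusts globin synthesis to the supply of heme. RNA levels report on none of the phosphorylation itself.

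CEBPG itself measured 17.1 and 18.1 FPKM in the control group and 6.91 and 7.96 FPKM in the knockdown group, a log2 fold change of -1.14 ± 0.082 (SE, limma, adjusted p = 0.000836). FPKM summed to between 345340 and 366139 in the 4 libraries, and read depth was unknown. Erythroid, myeloid and lymphoid markers were then read as a check of the labelled cell line. Of 18 erythroid markers, 14 were over 10 FPKM in every library, while AHSP, SLC4A1 and EPB42 were under 1 FPKM. The summed erythroid level was 8118 to 8595 FPKM in the control and 9030 to 9596 FPKM in the knockdown libraries, and of the 15 tested erythroid genes 3 were called higher and 3 lower (40%, against 20.9% of all tested genes). Of 12 promyelocytic and myeloid markers, 3 were over 10 FPKM in every library (SPI1, LYZ and CD68), and the granule genes PRTN3 and AZU1 were under 1 FPKM in all 4. The granule genes PRTN3 and AZU1 were thus near 0 while most erythroid markers were over 10 FPKM, which goes against the NB4 label. On the same myeloid list LYZ was at 15.0 to 20.1 FPKM, CD33 at 4.31 to 9.77 FPKM and FUT4 at 6.74 to 7.86 FPKM. Of the 12 genes, 6 were under 1 FPKM in every library. The libraries are named here as labelled. The myeloid list summed to 68.6 to 70.6 FPKM in the control and 96.7 to 99.4 FPKM in the knockdown libraries. Most of that difference was CD68, which rose from 20.6 and 18.5 FPKM to 47.3 and 43.9 FPKM (log2 fold change 1.18, limma adjusted p = 0.000638), while LYZ was called lower (-0.30, limma adjusted p = 0.0289) and the other 3 tested genes of the list were not called. Of 5 lymphoid markers, 3 were under 1 FPKM in every library, with CD79A and CD3E listed at 0 in at least 1 library, and the list summed to 41.8 to 45.1 FPKM in the control and 69.6 to 81.2 FPKM in the knockdown libraries. Most of the lymphoid sum and of its difference was CD3D, which rose from 32.3 and 33.3 FPKM to 66.95 and 56.3 FPKM (log2 fold change 0.88, limma adjusted p = 0.0018), and PTPRC, the other tested gene, was not called (adjusted p = 0.0687). All these sums differed between the groups without overlap, and their part in the results below was not tested. Bulk RNA cannot tell fewer cells of a type from less RNA per cell.

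Of the 9 genes, only EIF2S2 was called on CEBPG knockdown (limma, adjusted p under 0.05), and it fell. The other 8, with all 4 kinases and both phosphatase subunits among them, had adjusted p-values from 0.121 to 0.912 (limma). By the same test 20.9% of all tested genes were called at an adjusted p under 0.05, 10.9% higher and 9.99% lower, so that 1 of 9 (11.1%) does not stand above the background share. The log2 fold changes of the 8 genes lay between -0.092 and 0.21. Their 95% confidence intervals reached from -0.27 at the lowest bound to 0.41 at the highest, which is 0.831 to 1.33 times the control level on the FPKM + 1 scale. The median of the 9 log2 fold changes was -0.013, against 0.015 over all tested genes. The knockdown and control groups did not overlap in 4 of the 9 genes, against 64.8% of all tested genes. None of the 9 changed by more than 1 on the log2 scale, and 0.602% of tested genes did so with an unadjusted p under 0.05.

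**Figure D1:**
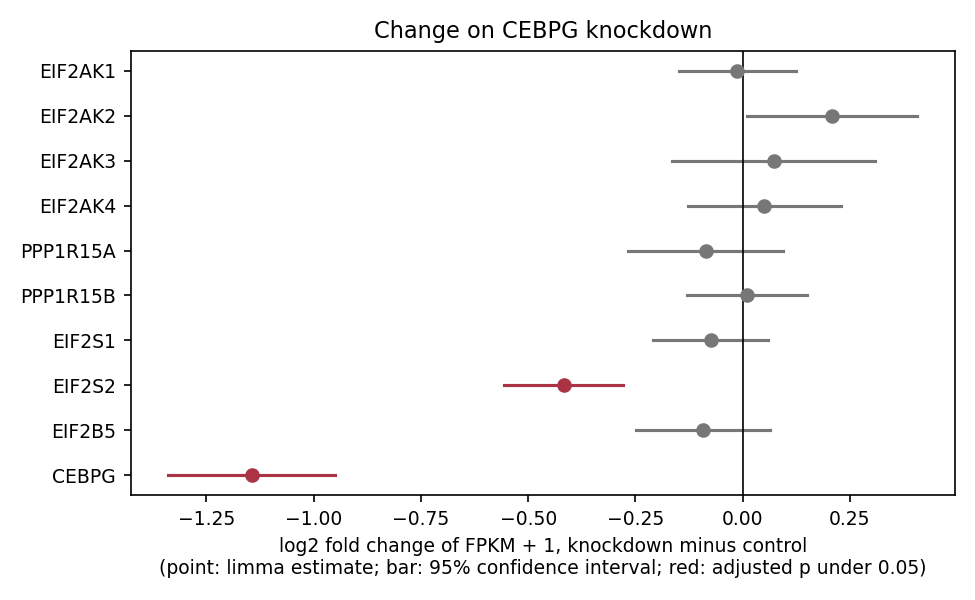
Change of the 9 genes and of CEBPG on knockdown. Points show the limma log2 fold change on the FPKM + 1 scale, knockdown minus control (2 libraries each), and bars the 95% confidence interval. Red marks an adjusted p under 0.05, reached by EIF2S2 (-0.42) and CEBPG (-1.14), while the intervals of the other genes lie between -0.27 and 0.41.

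The levels, which FPKM gives per length, ordered the genes over a wide range. EIF2AK1 was highest, with a mean of 89.8 FPKM over the 4 libraries and rank 661 among the 10968 tested genes. EIF2S2 followed at 59.6 FPKM, EIF2S1 at 36.3, EIF2B5 at 31.6, PPP1R15A at 27.3, PPP1R15B at 24.9, EIF2AK2 at 10.6, EIF2AK4 at 7.75 and EIF2AK3 at 3.2 FPKM. The ranges of neighbours in this order did not overlap over the 4 libraries, except for EIF2B5 and PPP1R15A, whose ranges were 29.9 to 33.9 and 25.9 to 30.01 FPKM.

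**Figure D2:**
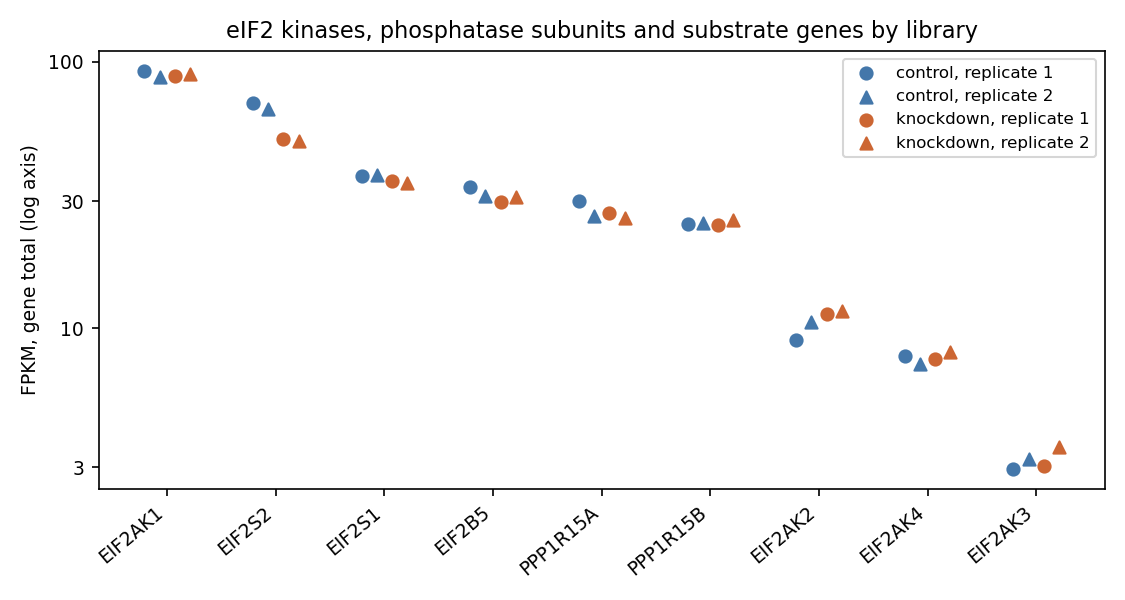
Gene totals in FPKM (log axis) of the 9 genes in each of the 4 libraries, ordered by mean level. Blue marks control and orange knockdown libraries. EIF2S2 is the gene whose control values (70.2 and 66.3 FPKM) stand clearly above its knockdown values (51.1 and 50.6 FPKM).

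Among the kinases, EIF2AK1, also called HRI, which senses heme, measured 92.6 and 87.9 FPKM with CEBPG present and 88.8 and 90.1 FPKM after knockdown. The groups overlapped, and the log2 fold change was -0.013 ± 0.057 (SE, limma, adjusted p = 0.891), with a 95% confidence interval of -0.15 to 0.12. EIF2AK2, also called PKR, which senses double-stranded RNA and is induced by interferon, measured 9.06 and 10.6 FPKM with CEBPG present and 11.3 and 11.6 FPKM after knockdown. Both knockdown values lay above both control values, as in 34.3% of all tested genes. Its log2 fold change of 0.21 ± 0.084 had a 95% confidence interval of 0.0096 to 0.41 and an unadjusted p of 0.0423, a level that 37% of tested genes reached, and missed the threshold after adjustment (limma, adjusted p = 0.121). Control replicate 1 was the lowest library, and the log2 fold change was 0.11 without it and 0.31 without control replicate 2. Each fit that leaves out a library sets 1 library against 2, with the spread taken from the group that keeps both, and the lone library is assumed to vary like that group.

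EIF2AK4, also called GCN2, which senses uncharged tRNA, measured 7.87 and 7.32 FPKM with CEBPG present and 7.64 and 8.16 FPKM after knockdown. The groups overlapped, with a log2 fold change of 0.050 and a 95% confidence interval of -0.13 to 0.23 (limma, adjusted p = 0.669). EIF2AK3, also called PERK, which senses unfolded protein in the endoplasmic reticulum, measured 2.97 and 3.21 FPKM with CEBPG present and 3.05 and 3.57 FPKM after knockdown. These groups also overlapped, and at this low level the interval was widest of the 9 genes, at -0.16 to 0.31 around 0.072 (limma, adjusted p = 0.640).

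Kinase RNA was thus dominated by EIF2AK1 in every library. Of the FPKM of the 4 kinases, which summed to between 109 and 113, EIF2AK1 held 82.3% and 80.7% with CEBPG present and 80.1% and 79.4% after knockdown. The share of EIF2AK2 was 8.05% and 9.68% in the control libraries against 10.2% in both knockdown libraries. Neither share overlapped between the groups, but with 2 libraries a group the exact permutation test (2-sided) cannot go below p = 0.33, which is the value both gave. Shares of EIF2AK4 (6.72% to 7.20%) and EIF2AK3 (2.64% to 3.15%) overlapped (exact permutation p = 0.667 for each).

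The table held EIF2AK1 as 2 RefSeq transcripts, and the division between them varied more than the gene total. NM_014413 measured 75.0 and 61.2 FPKM with CEBPG present and 65.6 and 74.0 FPKM after knockdown. NM_001134335 measured 17.6 and 26.7 FPKM with CEBPG present and 23.1 and 16.1 FPKM after knockdown. The share of NM_001134335 in the gene therefore ran from 17.9% to 30.4%, and within each group the replicate with more of it had less of the other transcript. Neither transcript was called, with log2 fold changes of -0.16 and 0.040 (limma on transcripts, adjusted p = 0.782 and 0.893). In GENCODE 44, 9.69% of the exonic bases of EIF2AK1 also belong to exons of AIMP2 on the opposite strand, and use of strand in the counting was not stated. For the other members such overlap with any gene was at most 5.6% of exonic bases.

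The phosphatase subunits differ in their known regulation: PPP1R15A, also called GADD34, is induced under stress as part of the feedback that ends the response, while PPP1R15B, also called CReP, is produced constitutively. PPP1R15A measured 30.01 and 26.4 FPKM with CEBPG present and 27.0 and 25.9 FPKM after knockdown. The groups overlapped, and the log2 fold change of -0.087 had a 95% confidence interval of -0.27 to 0.094 (limma, adjusted p = 0.447). PPP1R15B measured 24.7 and 24.9 FPKM with CEBPG present and 24.5 and 25.5 FPKM after knockdown, with a log2 fold change of 0.011 and an interval of -0.13 to 0.15 (limma, adjusted p = 0.912). It had the second smallest replicate SD of the 9 genes, 0.027 on the log2 scale. Neither direction was stable: that of PPP1R15A turned without control replicate 1, and that of PPP1R15B turned under both scaling alternatives and without knockdown replicate 2. The ratio of PPP1R15A to PPP1R15B was 1.21 and 1.06 with CEBPG present and 1.10 and 1.02 after knockdown, which overlap (exact permutation p = 0.667).

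Promoters of these 2 genes are shown because, of the 7 members with an entry in the RefSeq promoter table (GRCh38.p14; EIF2AK1 and EIF2S2 not matched), they were those with a motif linked to ATF4 partners or to cyclic AMP signalling. Each window of 300 bases (250 before and 50 after the start that the table gives, which for EIF2AK3 lies inside the annotated gene and for the other 6 is the annotated start of the gene) was searched on both strands for 4 motifs: the C/EBP-ATF response element TGATGNAA, the C/EBP palindrome TTGCGCAA, the cyclic AMP response element TGACGTCA and the CCAAT box CCAAT. PPP1R15B held the C/EBP-ATF response element as TGATGCAA, beginning 227 bases before the start, as did 3.62% of all 35116 promoters in 1 form or another and 1.83% of the 12175 promoters of tested genes. PPP1R15A held the cyclic AMP response element, beginning 58 bases before the start, as did 1.85% of all promoters and 3.08% of those of tested genes. CCAAT boxes were in PPP1R15B, EIF2AK2 and EIF2AK3, against 34.6% of all promoters and 35.4% of those of tested genes. The palindrome was in none of the 7, against 0.151% and 0.255%. The 250 bases before each start are given 5′ to 3′ on the strand of the gene, at chr19:48872171-48872420 (plus strand) for PPP1R15A and chr1:204411818-204412067 (minus strand) for PPP1R15B, with motif matches in capitals and no match overlapping another.
PPP1R15A: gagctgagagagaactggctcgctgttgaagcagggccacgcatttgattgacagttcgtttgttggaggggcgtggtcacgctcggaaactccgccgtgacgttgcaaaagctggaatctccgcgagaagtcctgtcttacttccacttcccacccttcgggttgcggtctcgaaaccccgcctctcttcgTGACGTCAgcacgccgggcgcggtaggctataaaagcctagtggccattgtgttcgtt
PPP1R15B: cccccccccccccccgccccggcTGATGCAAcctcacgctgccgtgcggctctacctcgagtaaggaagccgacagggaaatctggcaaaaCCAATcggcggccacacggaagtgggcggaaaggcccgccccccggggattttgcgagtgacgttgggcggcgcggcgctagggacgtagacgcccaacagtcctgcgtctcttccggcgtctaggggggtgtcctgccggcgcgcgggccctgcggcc
A match describes these letters and is no evidence of binding. Neither gene was called, with the RNA values given above.

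Of the eIF2 subunits, only EIF2S2 was called. It encodes the beta subunit, which binds eIF5 and eIF2B, and lies on chromosome 20 at positions 34088309 to 34112243 (GRCh38.p14). Its libraries measured 70.2 and 66.3 FPKM with CEBPG present and 51.1 and 50.6 FPKM after knockdown. Both knockdown values lay below both control values, as in 30.5% of all tested genes. The mean fell from 68.3 ± 2.78 to 50.9 ± 0.356 FPKM (SD, n = 2 each), to 74.5% of its control level. On the log2 scale it changed by -0.42 ± 0.059 (SE), with a 95% confidence interval of -0.56 to -0.28 (limma, adjusted p = 0.0055), and it ranked 417 by p among the 10968 tested genes. The log2 fold change was -0.46 to -0.38 in the 4 fits that left out a library, and it was called in each under the assumption that the lone library varies like the other group.

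EIF2S2 was listed as 3 transcripts, and the call was lost when these were tested in place of the gene. By that test 25 of 15795 transcripts were called, against 2288 of 10968 genes in the reported test (limma). NM_003908, which held 80.8% to 91.2% of the gene, measured 56.8 and 58.5 FPKM with CEBPG present and 46.6 and 41.9 FPKM after knockdown, with a log2 fold change of -0.38 (limma on transcripts, adjusted p = 0.117). NM_001316364 was at 8.07 and 7.77 FPKM against 3.63 and 5.30 FPKM, with a log2 fold change of -0.72 (limma on transcripts, adjusted p = 0.162). Both lay lower in the knockdown libraries without overlap. The third, NM_001316363, was at 5.40 FPKM in control replicate 1, listed at 0 in control replicate 2, and 0.851 and 3.41 FPKM after knockdown. GENCODE 44 names 7 pseudogenes for EIF2S2 and 1 for EIF2AK1, and how reads shared with such copies were assigned was not stated, so both gene totals are uncertain to that extent.

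**Figure D3:**
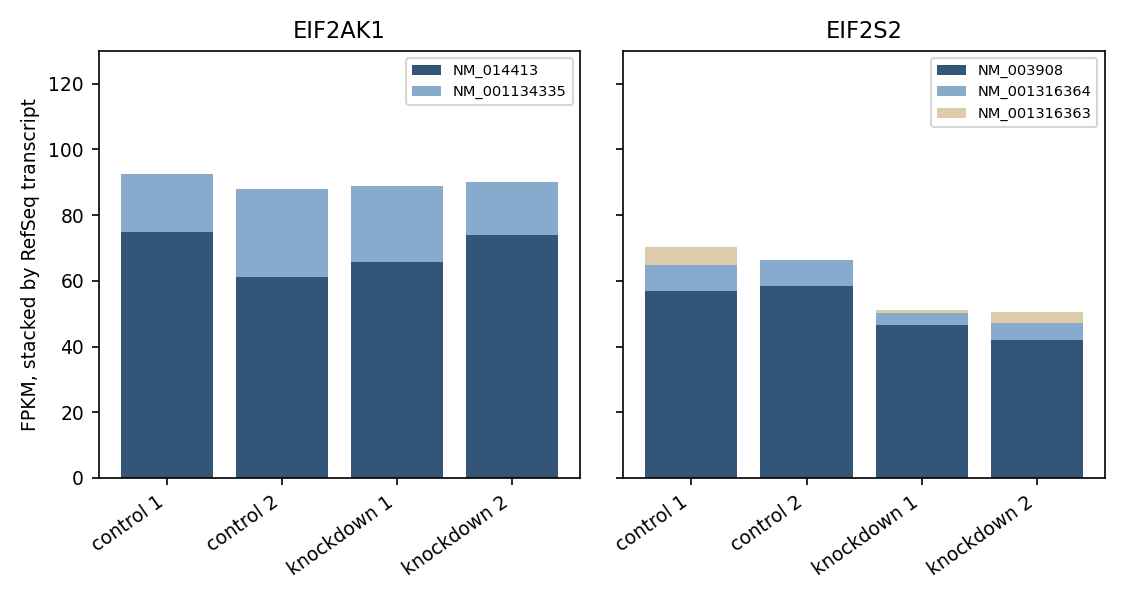
FPKM of EIF2AK1 and EIF2S2 in each library, stacked by RefSeq transcript. Bar height is the gene total. The EIF2AK1 totals stay between 87.9 and 92.6 FPKM while the division between its transcripts varies within groups, and both larger EIF2S2 transcripts are lower in the knockdown libraries.

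EIF2S1, the alpha subunit that the kinases phosphorylate, measured 37.1 and 37.5 FPKM with CEBPG present and 35.8 and 34.96 FPKM after knockdown. The groups did not overlap, as in 30.5% of tested genes with the same direction, but the log2 fold change of -0.074, with an interval of -0.21 to 0.059, was not distinguished from no change (limma, adjusted p = 0.377). EIF2S3, the gamma subunit that binds GTP, measured 129 and 127 FPKM with CEBPG present and 129 and 131 FPKM after knockdown, with a log2 fold change of 0.022 (limma, adjusted p = 0.801). The ratio of EIF2S2 to EIF2S1 was 1.89 and 1.77 with CEBPG present and 1.43 and 1.45 after knockdown. The ratio of EIF2S3 to EIF2S1 was 3.49 and 3.40 against 3.61 and 3.75. The summed kinases stood at 3.03 and 2.91 times EIF2S1 with CEBPG present and at 3.09 and 3.24 times after knockdown. These 3 ratios, which share EIF2S1 as divisor, did not overlap between groups, and each gave the smallest possible exact permutation p of 0.33.

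EIF2B5, the catalytic subunit of eIF2B, measured 33.9 and 31.3 FPKM with CEBPG present and 29.9 and 31.2 FPKM after knockdown. Its groups stood just apart, with 31.3 FPKM as the lower control and 31.2 FPKM as the higher knockdown value, and its log2 fold change of -0.092 had an interval of -0.25 to 0.063 (limma, adjusted p = 0.348). Of 13 other genes of the eIF2 cycle, 2 were called, both lower (15.4%, against 9.99% of all tested genes called lower and 20.9% called in either direction), and the median log2 fold change was -0.033, against 0.015 over all tested genes. They were EIF2B2, the beta subunit of eIF2B, and BZW2, a regulator of eIF5. EIF2B2 measured 15.3 and 13.9 FPKM with CEBPG present and 10.2 and 12.2 FPKM after knockdown (log2 fold change -0.36, limma adjusted p = 0.0383). BZW2 was at 49.6 and 47.0 FPKM against 34.8 and 37.9 FPKM (-0.40, limma adjusted p = 0.00949). Without control replicate 1 EIF2B2 was not called, and without knockdown replicate 1 neither gene was. The other eIF2B subunits EIF2B1, EIF2B3 and EIF2B4 had log2 fold changes of -0.038, -0.13 and 0.15 (limma, adjusted p = 0.655, 0.384 and 0.105).

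Regulators of the kinases and the phosphatase were read from a list of 14 genes, of which 13 were tested and IMPACT was below the filter. Of the 13, 3 were called higher and 1 lower (30.8%, against 20.9% of all tested genes), with a median log2 fold change of 0.034. PRKRA, which encodes the PKR activator PACT, rose from 38.8 and 36.9 FPKM to 49.7 and 51.0 FPKM (log2 fold change 0.40, limma adjusted p = 0.00612). PPP1CB, a catalytic subunit of type 1 phosphatase, rose from 22.3 and 22.5 FPKM to 27.7 and 27.6 FPKM (0.29, limma adjusted p = 0.0157). For both, the knockdown values lay above the control values without overlap, as in 34.3% of all tested genes. HSPA5, the endoplasmic reticulum chaperone that restrains PERK, was also called higher (0.30, limma adjusted p = 0.0234). OMA1, the mitochondrial protease that activates HRI through DELE1, fell from 4.54 and 4.45 FPKM to 3.12 and 2.88 FPKM (-0.46, limma adjusted p = 0.0132). Calls were lost without knockdown replicate 2 for all 4 genes, without knockdown replicate 1 for PPP1CB and HSPA5, and without control replicate 2 for HSPA5. Calls among all tested genes also fell in the fits without either knockdown library.

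Known read-outs of the integrated stress response moved both ways. Of 17 genes, 16 were tested, and 2 were called higher and 4 lower (37.5%, against 20.9% of all tested genes), with a median log2 fold change of 0.088. ATF4 measured 232 and 211 FPKM with CEBPG present and 241 and 228 FPKM after knockdown, which overlap (log2 fold change 0.085, limma adjusted p = 0.409). DDIT3, which encodes CHOP, an activator of PPP1R15A, was at 34.9 and 32.3 FPKM against 37.9 and 36.0 FPKM (0.13, limma adjusted p = 0.194). ATF5, a relative of ATF4, fell from 39.2 and 36.6 FPKM to 15.9 and 17.5 FPKM (-1.14, limma adjusted p = 0.000638). PSAT1, an enzyme of serine synthesis, fell from 93.7 and 93.3 FPKM to 68.5 and 72.0 FPKM (-0.41, limma adjusted p = 0.00539), and TRIB3 and ASNS were the other genes called lower. DDIT4, an inhibitor of mTORC1, rose by 0.41 (limma, adjusted p = 0.00941), and PHGDH, another enzyme of serine synthesis, by 0.38 (limma, adjusted p = 0.0173). Without knockdown replicate 1 the count of 6 was 1, and without knockdown replicate 2 it was 2, while calls among all tested genes fell from 2288 to 809 and 865. PSAT1 lost its call without knockdown replicate 1, DDIT4 and PHGDH without either knockdown library, and TRIB3 and ASNS without control replicate 1 or either knockdown library. ATF5 was called in all 4 of these fits, under the same assumption on the lone library.

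**Figure D4:**
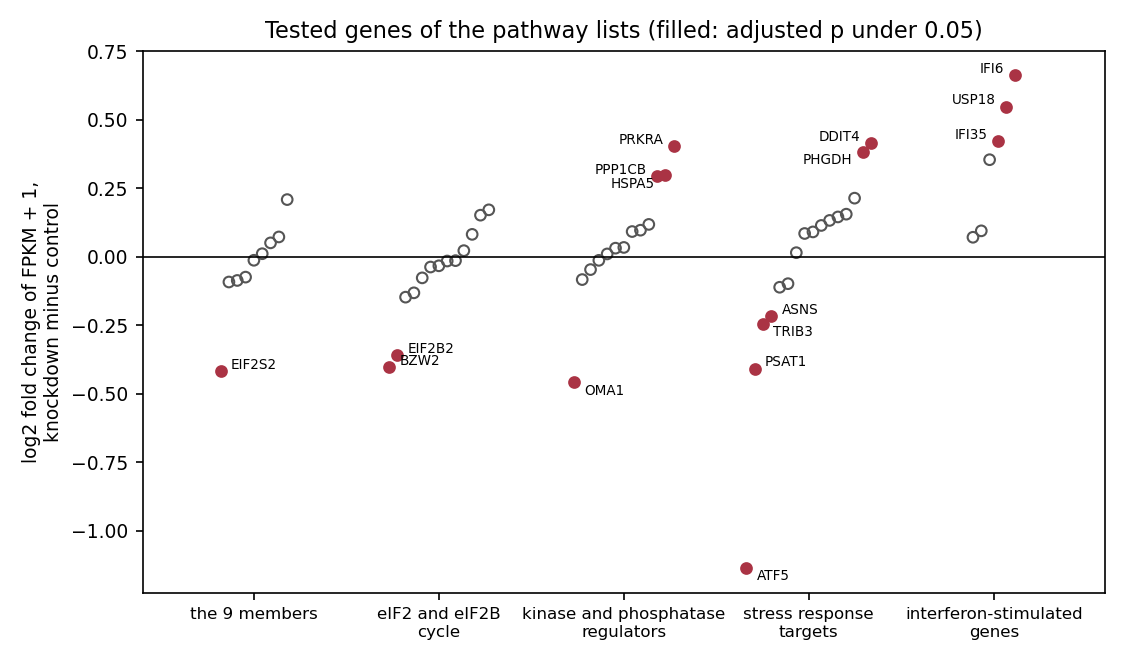
Limma log2 fold changes (FPKM + 1 scale, knockdown minus control) of the tested genes in the pathway lists and of the 9 members, each point a gene. Filled red points have an adjusted p under 0.05 and are named. One member, EIF2S2, is filled at -0.42, and ATF5 is the lowest point at -1.14.

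Interferon-stimulated genes were read beside EIF2AK2, which belongs to the same class. Of 19 listed genes 14 were read, 8 of these were under 1 FPKM in every library, and 6 were tested. IFI6, IFI35 and USP18 were called higher (50%, against 10.9% of all tested genes), by log2 fold changes from 0.42 to 0.66 on the FPKM + 1 scale. With 0.1 added to FPKM in place of 1, IFI6 and USP18 each changed by 1.02, so these sizes depend on the scale. USP18 passed the filter only through the knockdown libraries (0.677 and 0.580 FPKM in the control libraries), so the count of 3 in 6 and the median of 0.39 are no support for a change of the class. IFI35 rose from 8.03 and 7.20 FPKM to 10.3 and 10.7 FPKM (limma, adjusted p = 0.0128). The summed level of the 14 genes was 46.6 to 53.8 FPKM in the control and 61.3 to 61.4 FPKM in the knockdown libraries. Its part in the EIF2AK2 values was not tested. IFI6 and IFI35 lost their calls without either knockdown library, where USP18 fell below the filter. Calls among all tested genes also fell in these fits. USP18 lost its call without control replicate 2.

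The genes whose values ran closest to those of EIF2S2 over the 4 libraries, by Euclidean distance of centred log2(FPKM + 1) values, were HOXC-AS2 (0.013), VPS37A (0.018) and DMC1 (0.019). HOXC-AS2 is an antisense gene. Reads from any bases it shares with exons on the opposite strand cannot be told apart without strand, and such sharing was not examined. With 4 libraries such likeness is common: 1014 tested genes lay within 0.2 of EIF2S2.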

How the data were processed

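RNA-seq was performed on 4 libraries labelled NB4 (2 control, 2 CEBPG knockdown), prepared from total RNA. Per the labels, reads were mapped by the authors with HISAT2 2.0.5 to hg38, and per the study methods expression was calculated as FPKM. The authors deposited FPKM values for 29265 RefSeq transcripts. The quantifier and annotation were not given in the sources used here. Whole reads could not be recovered: among 3560 low genes with 1 transcript, the commonest ratio of the control libraries (3 decimals) made up 0.281%. Depth is therefore unknown, and no counting interval was given. Of the entries, 183 held no value and 164 had no symbol (0.250% of FPKM), and these were left out. Transcripts were summed to 16504 symbols.

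Genes whose mean reached 1 FPKM were compared as log2(FPKM + 1) in limma 3.58.1 (R 4.3.3), 2-sided, with a mean trend and with Benjamini-Hochberg adjustment over all tested genes. This scale understates changes of low genes. Code was tested on simulated data. Ratios within libraries were compared by exact permutation. The members and gene lists were chosen with earlier results of these data known. Named were the 9 members, CEBPG, called list genes (values for at most 2 in each direction), ATF4, DDIT3 and EIF2S3, transcripts with at least 10% of a member, and the 3 genes closest to the member of lowest adjusted p. IMPACT, EIF2B1, EIF2B3, EIF2B4, the transcript NM_001316363 and marker genes not called were named after their values were seen. Alternatives were a pseudocount of 0.1, no filter or a mean of at least 5 FPKM, 2 scalings, no mean trend, a replicate block, each library left out, and transcripts in place of genes.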

Additional observations from a re-analysis of the deposited data

How the results depend on the processing

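EIF2S2 was called in all 11 gene-level alternatives (log2 fold change -0.46 to -0.38, limma adjusted p 0.000271 to 0.0469), and no other member was called in any. Transcripts in place of genes gave 0 members (1 at an unadjusted p under 0.05), 0 other genes of the eIF2 cycle (3) and 0 regulators (4). They also gave 1 stress response target (9) and 0 interferon-stimulated genes (3). In all, 25 of 15795 transcripts were called, and 3213 were at an unadjusted p under 0.05 (limma). The reported test gave, in the same order, 1, 2, 4, 6, 3 and 2288. No filter on low values gave 1 cycle gene, 2 regulators, 2 targets and 0 interferon-stimulated genes (4 of 14 at an unadjusted p under 0.05). In all it gave 882 of 16504 genes, with 4441 at an unadjusted p under 0.05 (limma). A mean of at least 5 FPKM gave 1 of the 3 interferon-stimulated genes still tested, with 2210 of 7609 genes called in all. No mean trend gave 1 of 13 cycle genes, with 1889 of 10968 genes called in all.

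Leaving out each library, with the lone library of its group assumed to vary like the other group, gave 809 to 1931 genes in all, 0 to 3 cycle genes, 0 to 4 regulators, 1 to 6 targets and 0 to 4 interferon-stimulated genes (limma). Log2 fold changes ran from -0.050 to 0.024 for EIF2AK1, 0.11 to 0.31 for EIF2AK2, -0.015 to 0.16 for EIF2AK3 and 0.0041 to 0.097 for EIF2AK4. They ran from -0.15 to -0.037 for EIF2B5, -0.18 to 0.0028 for PPP1R15A and -0.016 to 0.038 for PPP1R15B. Changes in the share of kinase FPKM ran from -2.53 to -0.87 percentage points for EIF2AK1 and 0.54 to 2.17 for EIF2AK2. For EIF2AK3 they ran from -0.044 to 0.35 and for EIF2AK4 from 0.043 to 0.34 percentage points. PPP1R15B was at -0.0031 after median-ratio scaling and at -0.010 with columns scaled to one sum. The cause was not tested.

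The labels do not say that a replicate number marks anything shared, and the correlation of deviations between libraries of 1 number was 0.101. With the replicate block 3440 genes were called in all, and 1 of 9 members, EIF2S2. Among the 9 members, EIF2AK3, the gene of lowest level, had the widest interval.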
